A study of Vitis vinifera with 8 samples.

Results

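The grapevine genes followed here were each read by 1 probe on every array of the experiment. They are RopGEF1 (VIT_03s0038g03620), HSL1 (VIT_10s0003g00330) and a calmodulin binding protein (VIT_18s0001g13870), 3 of the 34369 probes on the array. The study tabulates them as bound by the NAC transcription factor VviNAC33, as lowered in stable overexpressing lines and as lowered on these same arrays. They were therefore chosen with these measurements known, and their differences between the groups are given below as descriptions without a test. VviNAC33 itself (VIT_19s0027g00230) was read alongside them.

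Leaves of in vitro plantlets of Vitis vinifera cv Sultana were taken 7 days after vacuum infiltration with Agrobacterium tumefaciens strain C58C1. The OXNAC33 group, 4 arrays, carried 35S:VviNAC33, in which the cauliflower mosaic virus 35S promoter drives the gene. The Control group, also 4 arrays, carried the empty pK7WG2 vector with a non-coding sequence. All plants were 6 weeks old by the labels, and both groups had been through infiltration with the bacterium. The labels count 8 infiltrated plants for OXNAC33 and 7 for Control, and the methods say that the OXNAC33 plants analysed were selected for strong transgene expression. Expression after infiltration is transient and reaches only part of the leaf cells. The methods take RNA from pooled apical leaves of each plant and describe the OXNAC33 replicates as separate plants. They do not say which of the 7 Control plants the Control arrays came from.

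RopGEF1 is known from Arabidopsis as a guanine nucleotide exchange factor that switches on ROP, the small GTPases that set cell polarity in plants. Active ROP organizes actin and vesicle traffic, and with them the placing of auxin carriers of the PIN family in the membrane. HSL1 stands for HAESA-LIKE 1, a leucine-rich repeat receptor kinase of the HAESA family, whose Arabidopsis members perceive IDA peptides during organ abscission and work with SERK co-receptors. Calmodulin is a calcium sensor that has no enzyme activity of its own and acts through the proteins it binds. The annotation of the third gene says no more than that it encodes such a protein.

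Levels are given as log2 of the intensity over the 75th percentile of its own array, so a level below 0 lies under that percentile. All 3 genes and VviNAC33 were well above background on 8 of 8 arrays, and 0 spots were saturated. The scanner software assigned each spot of the 3 genes an error of at most 10.1% of its intensity. Arrays were scanned on 3 dates. In either group, replicates 1 and 2 belong to scan date 1, replicate 3 to scan date 2 and replicate 4 to scan date 3. Depending on the array, 73.8% to 84.1% of probes exceeded background clearly. Leaf tissue was checked with 5 photosynthesis genes (LHCA5, PSB27, chlorophyll synthetase, ATPC1 and ferredoxin-thioredoxin reductase). On every array 5 of 5 were well above background. Root hair markers (MRH1, MRH2 and IRE) were so too, hence this detection does not identify the tissue. The summed linear level of the photosynthesis genes, in multiples of the 75th percentile, ranged from 14.7 to 28.8 in OXNAC33. In Control it ranged from 23.7 to 33.9. None of the 5 passed an unadjusted p under 0.05 in limma, while 1 of 5 was lower with scan date or replicate number as a block (LHCA5, 0.70 lower on the log2 scale) and 2 of 5 with array weights. The part of this shift in the results below was not tested. In whole leaves, fewer cells of a type and less RNA per cell cannot be told apart.

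The level of VviNAC33 was set beside the labels of the arrays. Whether its probe reads the transgene, the endogenous transcript or both is not given, so the level alone cannot decide whether a label is right. The level was 1.15, 0.59, -0.12 and -1.13 on OXNAC33 replicates 1 to 4, against 0.14, -0.75, -1.14 and -1.37 on Control replicates 1 to 4. The groups overlapped. The array labelled OXNAC33 replicate 4 was the lowest of its group and lay inside the Control range. VviNAC33 averaged 0.12 ± 0.98 in OXNAC33 and -0.78 ± 0.67 in Control (SD, n = 4 each). This difference, 0.90 (SE 0.52), was short of the threshold in limma (unadjusted p = 0.120, adjusted p = 0.664), and a two-sided exact permutation of the 8 arrays gave p = 0.2, with 0.0286 the smallest possible. Without the array labelled OXNAC33 replicate 4 the difference was 1.32 (unadjusted p = 0.0186, adjusted p = 0.372 in limma). Blocking on replicate number in limma gave adjusted p = 0.279 (0.00757 before adjustment). Between arrays of the same number, VviNAC33 was higher in OXNAC33 in 4 of 4 pairs, by 0.24 for replicate 4 and by up to 1.34 for replicate 2. The array labelled OXNAC33 replicate 4 was thus above the Control array of its own number, with which it shared a slide and a scan date. OXNAC33 replicate 3, at -0.12, also lay inside the Control range. The array labelled OXNAC33 replicate 4 is shown apart in what follows as the lowest of its group. OXNAC33 replicates 1 to 3 were on slides that held no Control array.

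RopGEF1 was low on 3 OXNAC33 arrays and not on the fourth. Its level was -0.12, 0.02 and 0.05 on OXNAC33 replicates 1 to 3 and 1.02 on the array labelled OXNAC33 replicate 4. The Control levels were 1.25, 1.62, 0.99 and 0.88. Replicates 1 to 3 lay below every Control array with a gap of 0.84, and the array labelled replicate 4 lay within the Control range. The mean was 0.24 ± 0.53 in OXNAC33 and 1.19 ± 0.33 in Control (SD, n = 4 each). This log2 difference of -0.94 (SE 0.29) put OXNAC33 at 52.0% of the Control level. With replicates 1 to 3 alone the share was 43.4%, and the array labelled replicate 4 alone stood at 89.5% of the Control mean. The deposited intensities behind these levels were 1405, 1443, 1795 and 3527 on OXNAC33 replicates 1 to 4 and 6579, 6919, 3237 and 2527 on the Control replicates.

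HSL1 showed the widest separation of the 3. Its level was -1.84, -2.18 and -2.19 on OXNAC33 replicates 1 to 3 and -0.47 on the array labelled OXNAC33 replicate 4. The Control levels were -0.50, -0.10, -0.43 and -0.68. Replicates 1 to 3 were again below all Control arrays, here by a gap of 1.16, and the array labelled replicate 4 stood among them. The mean was -1.67 ± 0.82 in OXNAC33 and -0.43 ± 0.24 in Control (SD, n = 4 each). The log2 difference of -1.24 (SE 0.38) put OXNAC33 at 42.3% of the Control level. The share was 32.0% with replicates 1 to 3 and 97.4% for the array labelled replicate 4. The SD of OXNAC33 replicates 1 to 3 alone was 0.20.

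The calmodulin binding protein had the smallest difference and the tightest low arrays. Its level was -2.41, -2.43 and -2.36 on OXNAC33 replicates 1 to 3 and -1.71 on the array labelled OXNAC33 replicate 4. The Control levels were -1.30, -1.17, -1.89 and -1.36. Control replicate 3 was the lowest of its group, and it set the gap to OXNAC33 replicates 1 to 3 at 0.46. The array labelled OXNAC33 replicate 4 was above Control replicate 3 and below the other Control arrays. The mean was -2.23 ± 0.35 in OXNAC33 and -1.43 ± 0.32 in Control (SD, n = 4 each). The log2 difference of -0.80 (SE 0.24) corresponded to 57.5% of the Control level, to 51.1% with replicates 1 to 3 and to 82.3% for the array labelled replicate 4. The SD of replicates 1 to 3 was 0.04.

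**Figure D1:**
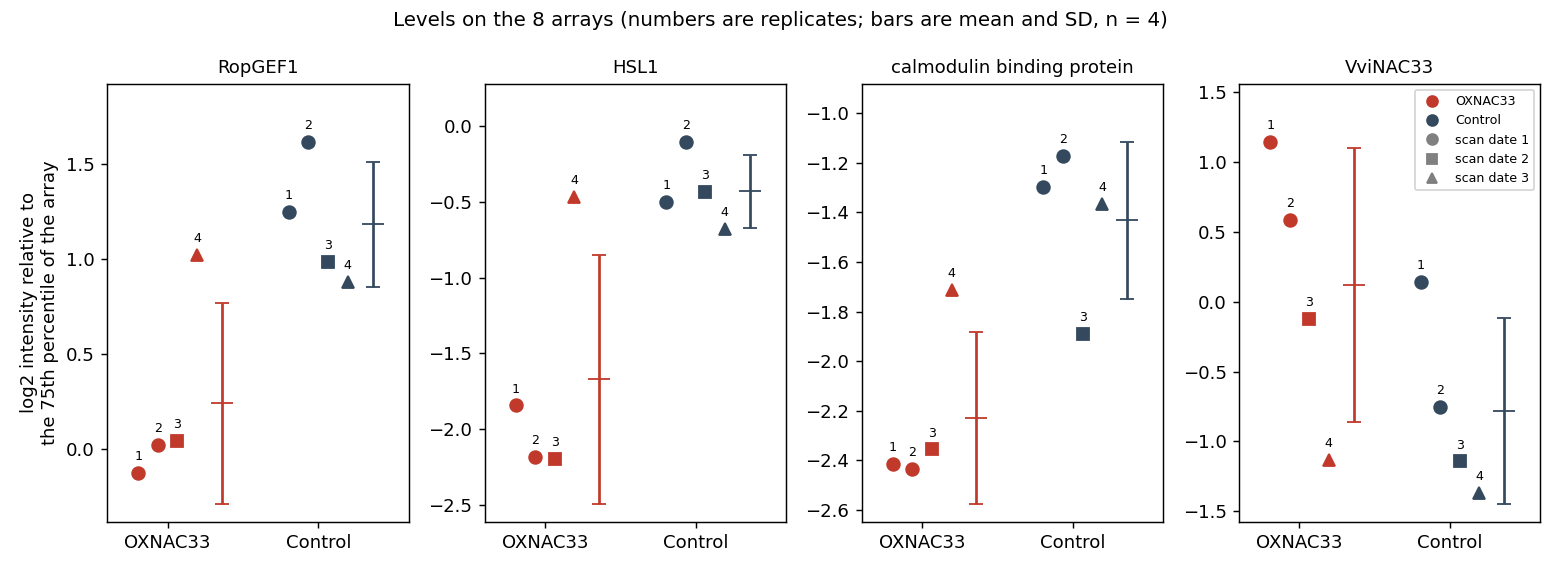
Level of RopGEF1, HSL1, the calmodulin binding protein and VviNAC33 on each array, with OXNAC33 left of Control (y axis, log2 of the intensity over the array's 75th percentile). Numbers are replicates, symbols are scan dates and bars are the mean and SD of 4 arrays. OXNAC33 replicates 1 to 3 sit below every Control array for the 3 genes, and the array labelled replicate 4 sits in the Control range in all 4 panels. In the VviNAC33 panel OXNAC33 replicate 3 sits in that range as well.

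Among the 26579 probes tested, 0 passed an adjusted p under 0.05 in limma (0% in either direction). The smallest adjusted value was 0.392. Without adjustment, a p under 0.05 was reached by 1016 probes (3.82%) that were lower and 1055 (3.97%) that were higher in OXNAC33. By the methods' t-test there were 0 adjusted calls too, with 819 lower and 1196 higher at the unadjusted threshold. In limma, all 3 genes were among the 824 probes (3.1%) lower in OXNAC33 by 1.5 fold or more at unadjusted p under 0.05. The methods set the same thresholds but apply them with another test, so 824 is not the count by their criterion. This count is a description, since the study called the 3 genes on these arrays. Ordered from the most negative difference, HSL1 stood at position 560, RopGEF1 at 1032 and the calmodulin binding protein at 1424. With the replicate number as a block, limma gave 2 adjusted calls, neither of them 1 of the 3 genes, and 1772 lower probes at the unadjusted threshold.

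The pattern of 3 low arrays and 1 array at the Control level was not limited to the 3 genes. It held for 807 of the 26579 tested probes. OXNAC33 replicates 1 to 3 lay below every Control array for 1420 probes (5.34%), which include all 3 genes. For 807 of these 1420 probes (56.8%) the array labelled OXNAC33 replicate 4 fell inside the Control range, as it did for the 3 genes. Over all tested probes it fell inside that range more often, for 67.5%. The corresponding shares were 46.8%, 55.7% and 56.0% for OXNAC33 replicates 1 to 3, so the array labelled replicate 4 was in the Control range most often. Only 466 probes (1.75%) were lower on all 4 OXNAC33 arrays than on every Control array, and none of the 3 genes was among them.

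Within scan dates, RopGEF1 differed between OXNAC33 and Control by -1.49, -0.94 and 0.14 on scan dates 1, 2 and 3. HSL1 differed by -1.71, -1.76 and 0.21 in the same order, and the calmodulin binding protein by -1.19, -0.46 and -0.35. The calmodulin binding protein alone kept a negative difference on scan date 3, and RopGEF1 and HSL1 turned slightly positive there. VviNAC33 was higher in OXNAC33 by 1.17, 1.02 and 0.24 on the same dates. Scan dates 2 and 3 held 1 array a group, so these values have no replicate error. Scan date as a term of its own, which does not use the group contrast, was tested with limma. It passed an adjusted p under 0.05 for 2023 probes (7.61%). It did not pass for RopGEF1 (adjusted p = 0.722), HSL1 (0.533), the calmodulin binding protein (0.349) or VviNAC33 (0.0742), which does not show that dates had no effect. The slide of scan date 3 was the only 1 of 5 slides with both groups. On scan dates 1 and 2 each group had its own slide, so slide and group differences cannot be separated there. The part of slide in the low levels of OXNAC33 replicates 1 to 3 was not tested. Arrays of the same slide had a consensus correlation of 0.66. With slide as a random block the differences shrank to -0.45 for RopGEF1, -0.63 for HSL1 and -0.57 for the calmodulin binding protein.

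**Figure D2:**
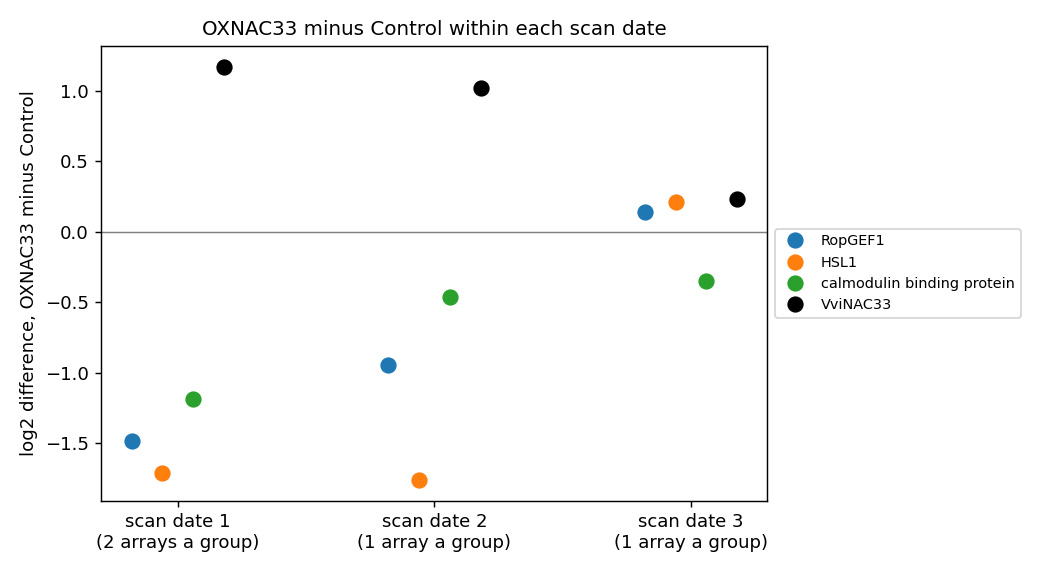
Log2 difference, OXNAC33 minus Control, within each scan date for the 3 genes and VviNAC33. Scan date 1 holds 2 arrays a group and the other dates 1 array a group, and no error is drawn. The 3 genes lie below 0 on scan dates 1 and 2, and on scan date 3 only the calmodulin binding protein does, at -0.35.

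Whether the 3 genes followed the amount of VviNAC33 was examined array by array. OXNAC33 replicates 1 to 3 spanned 1.27 on the log2 scale in VviNAC33. Over the same arrays RopGEF1 spanned 0.17, HSL1 0.35 and the calmodulin binding protein 0.08. The levels of the 3 genes thus moved far less than VviNAC33 among these arrays. Among Control arrays VviNAC33 spanned 1.51, while RopGEF1 spanned 0.74, HSL1 0.58 and the calmodulin binding protein 0.72.

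Arrays with similar VviNAC33 allowed a closer look. OXNAC33 replicate 3 had a VviNAC33 level of -0.12, below the 0.14 of Control replicate 1. RopGEF1 nevertheless differed by -1.20 between OXNAC33 replicate 3 and Control replicate 1, HSL1 by -1.69 and the calmodulin binding protein by -1.06. These arrays came from different scan dates. The array labelled OXNAC33 replicate 4 had a VviNAC33 level of -1.13, and Control replicate 3 had -1.14. Between them RopGEF1 differed by 0.04, HSL1 by -0.03 and the calmodulin binding protein by 0.18. Each pair is 1 array against 1 array, and the pairs were picked after the levels were seen.

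**Figure D3:**
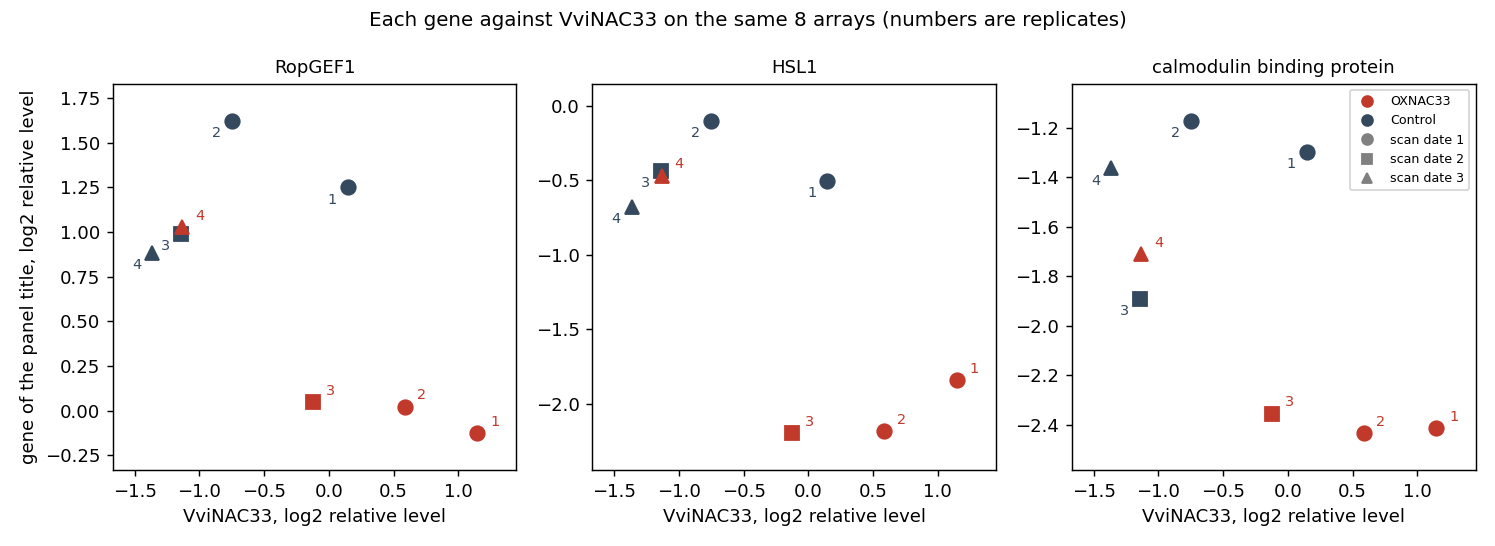
Level of each gene (y axis) against VviNAC33 (x axis) on the 8 arrays, both as log2 of the intensity over the array's 75th percentile. Colours are groups, symbols are scan dates and numbers are replicates. OXNAC33 replicates 1 to 3 form a low row across a VviNAC33 span of 1.27, apart from the Control arrays and from the array labelled OXNAC33 replicate 4.

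Since the arrays fell into these separate groups, the correlations tested here were computed on deviations from the group means. The study's call of the 3 genes on these arrays also used the spread within groups. These deviations are therefore not independent of the choice of genes. The 6 relations among the 3 genes and VviNAC33 were tested by two-sided exact permutation of arrays within groups, 576 arrangements, and adjusted over the 6. With VviNAC33, Pearson's r was -0.49 for RopGEF1, -0.56 for HSL1 and -0.38 for the calmodulin binding protein. Spearman's rank correlation was -0.36, -0.29 and -0.29 in the same order. Exact permutation of Pearson's r gave p = 0.304, 0.318 and 0.425, with n = 8 arrays in each test. The adjusted p was 0.381, 0.381 and 0.425 in the same order, and Spearman's rank correlation gave exact permutation p = 0.453, 0.576 and 0.540. None of these relations passed. The 2 arrays farthest from the median of VviNAC33 were OXNAC33 replicate 1 and the array labelled OXNAC33 replicate 4. Leaving them out, with group means that still included them, left r at 0.36, 0.02 and 0.28. Without the array labelled OXNAC33 replicate 4 alone, r was 0.25 for RopGEF1, 0.42 for HSL1 and 0.27 for the calmodulin binding protein. The negative sign therefore rested on that array. With group and scan date both removed, r was -0.79, -0.63 and -0.55. Scan dates 2 and 3 hold 1 array a group and gave no value of their own. Pooled as a later period, with the group means of each period removed, r was -0.88, -0.69 and -0.70, and 16 arrangements cannot give a two-sided exact permutation p under 0.125.

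The 3 genes tracked each other more closely than they tracked VviNAC33 in these r values, a difference that was not itself tested. For RopGEF1 with HSL1, r was 0.90 (Spearman 0.62), with exact permutation p = 0.0347 and adjusted p = 0.104. For RopGEF1 with the calmodulin binding protein, r was 0.84 (Spearman 0.71), with exact permutation p = 0.0330 and adjusted p = 0.104. For HSL1 with the calmodulin binding protein, r was 0.74 (Spearman 0.52), with exact permutation p = 0.0972 and adjusted p = 0.194. Spearman's rank correlation gave exact permutation p = 0.151, 0.0816 and 0.189 for the same pairs, and none of the relations passed the adjustment. Without the array labelled OXNAC33 replicate 4, r fell to 0.60, 0.60 and 0.20. Leaving out the 2 arrays farthest from the median of the second gene of each pair gave r of 0.24, 0.82 and 0.83. The group means here still included the omitted arrays, so these are not within-group values without them. The relation of RopGEF1 with HSL1 fell most, with Control replicate 2 and the array labelled OXNAC33 replicate 4 left out. With the group means of each scanning period removed, r was 0.94, 0.69 and 0.68.

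The genes with the most similar profile over the 8 arrays were named as a description, with Pearson's r over all arrays, which share group, scan date and scaling. Closest to RopGEF1 were an ankyrin repeat protein (VIT_04s0008g01640), the acetyl-CoA carboxylase carboxyltransferase alpha subunit (VIT_08s0007g01750) and phytol kinase 2 (VIT_13s0074g00040), each with r of 0.99. The carboxyltransferase supplies malonyl-CoA to fatty acid synthesis in the plastid, and phytol kinase recycles phytol released from chlorophyll. The carboxyltransferase subunit ranged from -2.55 to -2.51 on OXNAC33 replicates 1 to 3, stood at -1.95 on the array labelled OXNAC33 replicate 4 and ranged from -1.91 to -1.63 in Control. Phytol kinase 2 ranged from -1.08 to -0.86 on OXNAC33 replicates 1 to 3, stood at -0.31 on the array labelled replicate 4 and ranged from -0.43 to 0.27 in Control. Phytol kinase 2 divided the arrays as RopGEF1 did, whereas the carboxyltransferase subunit was lower on all 4 OXNAC33 arrays than on every Control array.

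Closest to HSL1 were an AAA-type ATPase (VIT_14s0066g02070, r of 0.99), VIT_18s0001g14040 and VIT_11s0016g01040 (r of 0.98 each), the last of which was well above background on only 1 of 4 OXNAC33 arrays and on 4 of 4 Control arrays. Closest to the calmodulin binding protein were a seed specific protein (VIT_05s0020g04880, r of 0.99), an EXS family protein (VIT_14s0108g01130, r of 0.98) and an unknown protein (VIT_14s0171g00170, r of 0.98). The seed specific protein ranged from -3.13 to -3.07 on OXNAC33 replicates 1 to 3, stood at -1.08 on the array labelled replicate 4 and ranged from -1.83 to -0.05 in Control. Such profiles were not rare. An r above 0.9 was shared by 270 probes (1.02%) for RopGEF1, 227 (0.858%) for HSL1 and 204 (0.771%) for the calmodulin binding protein. HSL1 was the 36th closest probe to RopGEF1, and the calmodulin binding protein was the 97th.

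Genes of the ROP and PIN system were read from a list of 15 (ROP switches, PIN carriers, PINOID kinases and their binding proteins, and actin regulators), of which 12 were tested. At an unadjusted p under 0.05 in limma, 1 of the 12 was lower (3.82% over all probes) and 0 were higher, and 0 passed the adjustment. The count of lower genes was 3 with scan date or replicate number as a block, with array weights or without the array labelled OXNAC33 replicate 4, and 0 with normexp, with the authors' values or with probes well above background on all 8 arrays. The median log2 difference was -0.30, against 0.04 over all tested probes, and 8 of 12 were negative. The gene called was auxin efflux carrier protein 10 (VIT_08s0040g01220), which was not well above background on any OXNAC33 array and well above it on 4 of 4 Control arrays. It entered the test only through the group in which it was high, so its call is no support for a difference. Its measured level was -8.14 ± 0.94 in OXNAC33 and -5.83 ± 0.67 in Control (SD, n = 4 each). The measured difference had an adjusted p of 0.586 in limma. The Control mean lay 2.12-fold above the detection limit of the OXNAC33 arrays, a bound given without an error and not tested. A bound of this kind takes the dimmest signal still well above background on each array in place of a dimmer probe.

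PBP1 (VIT_15s0046g00070), a PINOID binding protein, had the same division of arrays as RopGEF1, with at most -3.32 on OXNAC33 replicates 1 to 3, -1.87 on the array labelled OXNAC33 replicate 4 and -2.55, -1.20, -2.75 and -1.91 in Control (difference -1.15, SE 0.52, adjusted p = 0.633 in limma). Other PBP1 genes did not share this division. VIT_02s0012g00640 differed by 0.34 (SE 0.82, adjusted p = 0.921 in limma), with overlap, and VIT_02s0012g00650 was too dim to be tested. Rac1 (VIT_03s0038g02380), a small GTPase of the family on which RopGEF proteins act, had 3.98, 3.79, 3.26 and 3.69 in OXNAC33 and 3.56, 3.83, 3.55 and 3.24 in Control, with full overlap.

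Of 21 genes of the HAESA pathway and of related leucine-rich repeat receptors, 18 were tested. In limma, 1 was lower (5.56%, against 3.82% over all probes) and 0 were higher at an unadjusted p under 0.05, 0 passed the adjustment, and the median difference was -0.06. With scan date as a block 2 were lower and 2 higher, and with replicate number as a block 1 was lower and 1, IDA, was higher. Without Control replicate 4, 2 were lower, and without Control replicate 1, Control replicate 3 or OXNAC33 replicate 3, 1 was higher. The second HSL1 gene (VIT_12s0028g03060) had 3.23, 3.17, 3.05 and 2.76 in OXNAC33 and 3.51, 3.58, 2.91 and 3.21 in Control. Its groups overlapped, and the difference was -0.25 (SE 0.20, adjusted p = 0.729). IDA (VIT_01s0011g02790), the peptide hormone precursor that HAESA receptors perceive in Arabidopsis, had 0.30, -0.33, -1.66 and -1.25 in OXNAC33 and -0.50, -1.75, -2.78 and -1.45 in Control. Its difference was 0.88 (SE 0.56, adjusted p = 0.684), with overlap. The SERK1 co-receptor genes differed by 0.52 (SE 0.26) and 0.02 (SE 0.22), and neither passed. The gene called was CLL1B (VIT_16s0013g01990), a receptor kinase gene of the CLAVATA1 type. It had -0.63, -0.40 and -0.40 on OXNAC33 replicates 1 to 3 and 0.25 on the array labelled replicate 4, against 0.19, 0.40, 0.64 and 0.66 in Control (difference -0.77, SE 0.22, adjusted p = 0.633).

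Of 25 genes for calmodulin, calmodulin-like proteins and proteins that bind calmodulin, 23 were tested, with 2 lower (8.70%, against 3.82% over all probes), 0 higher and 0 adjusted calls in limma. Leaving out 1 array gave 1 to 4 lower genes, with 1 without Control replicate 2 or OXNAC33 replicate 2 or 3 and 4 without the array labelled OXNAC33 replicate 4. Array weights also gave 4. The median difference was 0.03, close to that of all probes, and 12 of 23 differences were positive. The 6 calmodulin genes, including both named CAM7, differed by -0.24 to 0.16, and none passed. CML37 (VIT_18s0122g00180), a calmodulin-like calcium sensor, differed by 1.02 (SE 0.46) and did not pass (adjusted p = 0.633). The lower genes were a calmodulin-like gene (VIT_18s0001g01630) and IQD31 (VIT_17s0000g05840), which encodes a protein of the IQ domain family that binds calmodulin. The calmodulin-like gene had -1.96, -1.31 and -1.55 on OXNAC33 replicates 1 to 3 and -0.32 on the array labelled replicate 4, against 0.29, -0.75, 0.70 and 0.23 in Control (difference -1.40, SE 0.41, adjusted p = 0.633). IQD31 had -1.41, -1.51 and -1.64 on OXNAC33 replicates 1 to 3 and -0.03 on the array labelled replicate 4, against 0.12, 0.52, -0.46 and -0.30 in Control (difference -1.12, SE 0.39, adjusted p = 0.633). Both repeat the division seen for the 3 genes.

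Other genes that the study names calmodulin binding proteins were read whatever their values. VIT_01s0026g01790 differed by -0.35 (SE 0.17), VIT_13s0019g01830 by -0.61 (SE 0.42) and VIT_07s0005g03830 by -0.14 (SE 0.24), and none passed. The first 2 were nonetheless below every Control array on OXNAC33 replicates 1 to 3 and inside the Control range on the array labelled replicate 4. In the whole calmodulin list, OXNAC33 replicates 1 to 3 lay below every Control array for 4 of 23 genes, and in all 4 the array labelled replicate 4 was inside the Control range. Replicates 1 to 3 lay below every Control array for 3 of 12 genes in the ROP and PIN list and for 1 of 18 in the HAESA list. All tested probes gave 5.34%. The array labelled replicate 4 was inside the Control range for 2 of these 3 genes and for the HAESA gene. The remaining ROP and PIN gene was auxin efflux carrier protein 10, which entered the test only through the Control group and is no support.

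**Figure D4:**
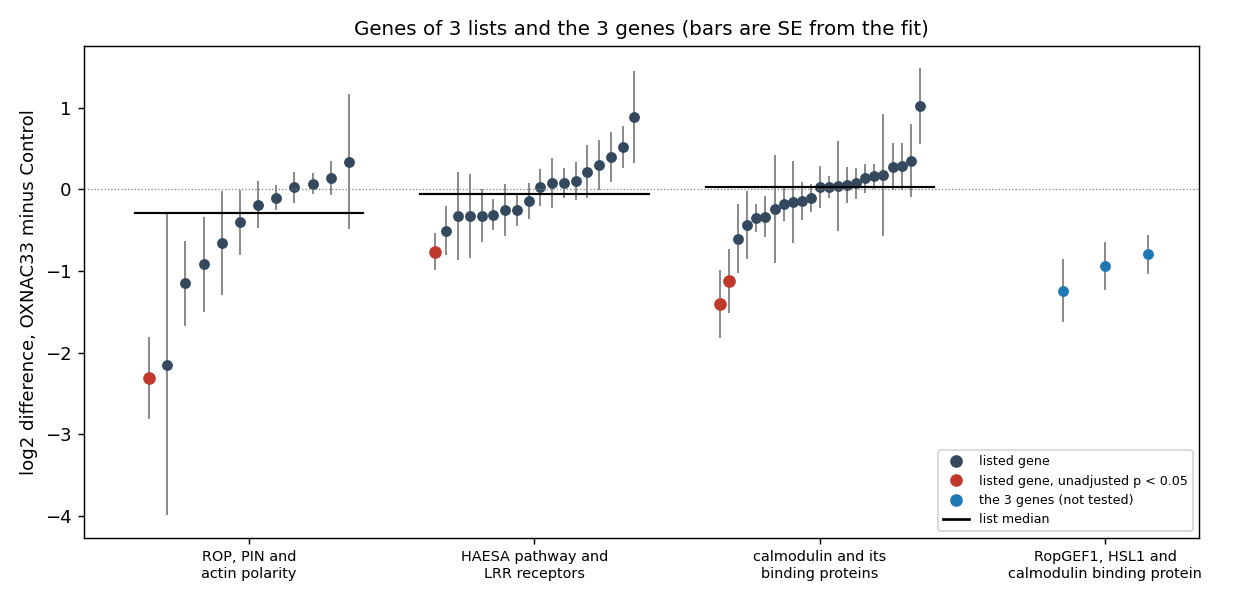
Log2 difference, OXNAC33 minus Control, for each tested gene of the 3 lists and for HSL1, RopGEF1 and the calmodulin binding protein (left to right in the last column), with SE bars from the fit over all 8 arrays. Red points passed an unadjusted p under 0.05, black lines are list medians (-0.30, -0.06 and 0.03), and the last column was not tested.

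The study tabulates 5 more bound genes as lowered in stable lines and as changed on these arrays, and this list too was chosen on these arrays. Their differences are therefore given without a test. A C2H2 zinc finger gene (VIT_06s0004g06240) differed by -0.80 (SE 0.33) and UDP-glucuronic acid decarboxylase 1 (VIT_06s0004g04390), an enzyme of UDP-xylose synthesis for the cell wall, by -0.37 (SE 0.15). A MAP3K gene (VIT_07s0031g00330) differed by -0.35 (SE 0.16), glutamyl-tRNA synthetase (VIT_14s0060g00110) by 0.18 (SE 0.13) and coatomer subunit delta (VIT_01s0011g01570) by 0.24 (SE 0.13). The zinc finger gene and the decarboxylase were lower on all 4 OXNAC33 arrays than on every Control array. In both, the array labelled OXNAC33 replicate 4 stood outside the Control range, unlike in RopGEF1, HSL1 and the calmodulin binding protein. Its levels were 2.37 for the zinc finger gene, where Control ranged from 2.66 to 3.04, and -0.29 for the decarboxylase, where Control ranged from -0.24 to 0.10.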

How the data were processed

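Per the file headers, the authors extracted 1-colour (Cy3) intensity with Agilent software, which subtracted background and spatial trends. The deposited processed intensity is linear and was not scaled between arrays. The authors' second deposited table held 24631 probes, each value the processed intensity times 1 factor per array. Here log2 processed intensity minus the log2 75th percentile of the array was used, without 140 outlying spots. Probes well above background on at least 4 of 8 arrays were tested for the group difference alone in limma 3.58.1 (R 4.3.3), with Benjamini-Hochberg adjustment. Relations used exact permutation in Python 3.11.15.

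The genes and lists were chosen with earlier results of these data known. Lists came from the study's tables of co-expression, binding and stable lines. Named were the 3 genes, VviNAC33, the 3 probes most similar to each, per list at most 4 genes with an unadjusted p under 0.05, the 5 other bound genes and the nearest relatives. The PBP1 genes were named beyond this. A few list genes stay in the counts and are not reported here. Names were the study's, since 0 identifiers matched the reference table.

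Replicate numbers were taken to pair the arrays. Deviations from group means correlated by 0.490, 0.253, 0.496 and 0.102 between same-numbered arrays. Between differently numbered arrays the correlation ranged from -0.634 to 0.499. It was 0.393 for OXNAC33 replicate 2 with Control replicate 1 and 0.220 for OXNAC33 replicate 4 with Control replicate 3, above the same-numbered values. These values therefore do not establish the pairing, and the labels give no source of it. Root hair markers (MRH1, MRH2 and IRE) were well above background on all arrays, with a summed level of 0.948 to 1.15 in OXNAC33 and 0.742 to 1.17 in Control. Alternatives were quantile and normexp normalization, the authors' table, median spot signal, blocks for scan date, replicate and slide, array weights, other filters, the methods' t-test and leaving out each array.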

Additional observations from a re-analysis of the deposited data

Results flagged for a closer look

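Single arrays far from the rest of their group were sought by Dixon's ratio, the gap to the nearest array over the range of the 4 arrays, in 137 groups of 4. It passed 0.829 in 8 groups, where chance flags about 1 in 20, or 6.85. In 4 of the 8 the array was the one labelled OXNAC33 replicate 4, above the other 3. The ratio was 0.852 for RopGEF1, 0.892 for the calmodulin binding protein, 0.856 for IQD31 and 0.901 for MRH1, a root hair gene at -3.25 where the other 3 ranged from -3.87 to -3.81. HSL1 did not pass, although its array labelled OXNAC33 replicate 4 was also the highest. OXNAC33 replicate 3 was lowest for BAM1 (VIT_12s0035g00990, 0.843) and for the C2H2 zinc finger gene (0.842). Control replicate 2 was highest for a calmodulin-like gene (VIT_05s0029g00070, 0.905), and Control replicate 3 for coatomer subunit delta (0.952).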

How the results depend on the processing

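All 18 alternatives kept the negative direction of RopGEF1, HSL1 and the calmodulin binding protein. Over the 10 that keep all arrays the difference ranged from -1.17 to -0.45, from -1.59 to -0.63 and from -0.98 to -0.57 for these genes in turn. Leaving out 1 array gave -1.20 to -0.80, -1.64 to -1.07 and -0.97 to -0.71. The blocks for scan date and replicate and the other filters left the differences unchanged, since they do not alter the group means. The genes were also chosen as lowered on these arrays, so the kept direction is not an independent check. VviNAC33 passed an unadjusted p under 0.05 in limma with scan date as a block (0.90), with the replicate block (0.90), with array weights (1.25) and without OXNAC33 replicate 4, and leaving out 1 array gave 0.56 to 1.32. Removing group and scan date together moved r of RopGEF1 with VviNAC33 to -0.79. Leaving out 1 array gave r with VviNAC33 of -0.67 to 0.25 for RopGEF1, -0.68 to 0.42 for HSL1 and -0.70 to 0.27 for the calmodulin binding protein, positive only without OXNAC33 replicate 4 (0.25, 0.42 and 0.27). Lower probes numbered 2001 with scan date as a block, 1772 with the replicate block and 2670 with array weights. Higher probes numbered 2002 with scan date as a block, 3872 with array weights and 478 with normexp, run on the median signal. Leaving out 1 array gave 597 to 1541 lower and 441 to 1659 higher. Adjusted calls numbered 2 with the replicate block and 0 to 2 without 1 array. At the unadjusted threshold the replicate block also moved counts in the lists. Lower genes went from 1 to 3 in the ROP and PIN list and from 0 to 1 among the photosynthesis genes. Higher genes went from 0 to 1 in the HAESA list. The number of arrays limits the precision. The cause of these changes was not tested.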
